A study of Mus musculus with 8 samples.

Results

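The interferon regulatory factor (IRF) family was examined in splenic NK cells and splenic CD8+ T cells from mice with *Tyk2*-/- genotype. Its members were taken by gene symbol, namely *Irf1*, *Irf2*, *Irf3*, *Irf4*, *Irf5*, *Irf7*, *Irf8* and *Irf9*, which makes 8 of the 54232 gene IDs with counts. IRF proteins are transcription factors with a shared DNA-binding domain that reads tandem GAAA repeats, the core of the IFN-stimulated response element (ISRE). IRF3 and IRF7 are phosphorylated after the sensing of viral nucleic acids or bacterial products and switch on the type I IFN genes, while IRF9 joins STAT proteins in the complex ISGF3 downstream of the type I IFN receptor, with which TYK2 associates. IRF1 and IRF2 bind the same elements mainly as activator and repressor, and IRF4, IRF5 and IRF8 act in the development and activation of lymphoid and myeloid cells.

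NK and CD8+ T cells were sorted by FACS from the spleens of mice of 8 to 12 weeks with the strain label C57BL/6 (C57BL/6N background in the methods), all of them labelled *Tyk2* knockout, and were sequenced under homeostatic conditions, that is, without treatment. The CD8+ T cells are called T cells below. Each cell type had 3 libraries, and each library was a pool of 3 spleens, so that p-values measure the spread between pools and not between single mice. The methods name a pair of lines for the *Tyk2*-/- genotype, one with the targeted allele *Tyk2*tm1Biat alone and one that also carries a CMV-cre transgene, and which line gave which library is not given in the sources used here. Values of *WT* CD8+ T cells were not used here, because 3 columns of values carry that label against 2 listed samples. No effect of TYK2 on the family was therefore tested, and the comparison below is that of NK with T cells that share the knockout.

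The targeted gene *Tyk2* had 3864, 4245 and 3207 raw counts in the NK cell libraries against 105, 919 and 554 in the T cell libraries. Exon-wise counts were not analysed here, so these reads do not bear on the genotype labels. The difference in *Tyk2*, 5.69-fold after normalisation, did not pass the quasi-likelihood test of edgeR (Benjamini-Hochberg adjusted p = 0.075), while DESeq2 called it. The total count on genes was 20957384 to 26144478 in T cells and 32848432 to 38573550 in NK cells. Genes with a count numbered 12893 to 14042 in T cells and 17224 to 17373 in NK cells. Limits taken below from 0 counts do not allow for that difference in genes detected. All 6 NK cell markers were higher in NK cells and 7 of 8 CD8+ T cell markers were higher in T cells (quasi-likelihood test of edgeR, Benjamini-Hochberg adjusted p below 0.05). *Ncr1*, which encodes the NK receptor NKp46, had 0 counts in each T cell library, and *Cd8b1* had 0 counts in each NK cell library. Other markers of these lists were counted in both cell types. *Cd3d* had 2898 to 6756 normalised counts in NK cells and 51090 to 72430 in T cells. *Cd3g* had 3899 to 6364 in NK cells and 69190 to 86400 in T cells. *Nkg7*, an NK cell marker, had 569000 to 666500 in NK cells and 88610 to 140400 in T cells. B cell markers were also counted in the T cell libraries. Over 6 genes their normalised counts summed to 6828, 4891 and 940.6 in libraries 1, 2 and 3, against 7.192 to 1521 in NK cells. *Cd79b* alone gave 5739, 4725 and 940.6 of these in T cells and 255.9, 1519 and 1.798 in NK cells. None of the 4 B cell markers tested passed the test. In bulk libraries fewer cells of a type and less RNA per cell cannot be told apart.

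Counts were divided by TMM-corrected library sizes and brought to the average size of the 6 libraries, which gives the normalised counts below. Of the 8 members, all of which passed the filter on low counts, *Irf8* was higher in NK cells and *Irf9* was higher in T cells. These 2 calls compare with 11.4% of the 14062 genes tested that were called in either direction, 6.24% being higher in NK cells and 5.14% higher in T cells. The libraries of both cell types did not overlap for 6 of 8 members (*Irf1*, *Irf2*, *Irf4*, *Irf5*, *Irf8* and *Irf9*), which was the case for 41.6% of all genes tested. The median log2 fold change of NK over T cells was 0.93 over the 8 members and 0.10 over all genes tested. At 3 counts or fewer in each T cell library were 3 members (*Irf4*, *Irf5* and *Irf8*), as were 13.9% of the genes tested. DESeq2, which called 29.6% of 12612 genes, called 5 members, namely *Irf1*, *Irf2*, *Irf5* and *Irf8* as higher in NK cells and *Irf9* as higher in T cells.

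*Irf8* encodes a factor required for the development of dendritic cells and monocytes and for NK cell responses to virus. It is annotated on the plus strand of GRCm38 at chr8:120736358-120756694. Normalised counts of *Irf8* were 20790, 17510 and 19900 in the NK cell libraries, and raw counts were 1, 0 and 0 in the T cell libraries. The groups were thus far apart, and the T cell libraries did not exceed 3 counts, which was taken as the limit that a count of 0 allows. The ratio of summed counts, corrected for effective library size, was 51500 with a 95% counting interval from 9240 to 2030000, which covers counting error only. T cell library 1 holds the single count, and without it *Irf8* was at least 5890-fold higher in NK cells, while the ratio was 31500 without T cell library 3 and 35800 to 54200 without each of the others. With edgeR's quasi-likelihood test the adjusted p was 0.00017, and *Irf8* was called in each of the 6 fits that left out 1 library, with adjusted p between 0.00061 and 0.0034.

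Other cell types that express *Irf8* were read from their markers. Among 7 macrophage and monocyte markers, *Adgre1* and *Cd14* were at 0 in all 6 libraries, whereas *Cd68* had 883, 633 and 235 raw counts in NK cells and 1, 55 and 147 in T cells. *C1qb* had 655 raw counts in NK cell library 2 and at most 1 elsewhere, and *Lyz2* had 43 in NK cell library 3 and at most 1 elsewhere. The summed normalised count over the list was 249.9 to 1098 in NK cells and 2.447 to 142.2 in T cells. Among 8 dendritic cell markers, *Flt3* had 1 count in a single NK cell library and *Clec10a* none, and *Itgax* had 3497, 3644 and 2804 raw counts in NK cells and 0, 124 and 0 in T cells. *Zbtb46* had 354, 294 and 128 in NK cells and 0, 31 and 453 in T cells. The sum was 2809 to 4219 normalised counts in NK cells and 2338 to 6374 in T cells, most of the latter being *Ccr9*, which was called as higher in T cells. Without *Ccr9* the sum was 2799 to 4155 in NK cells and 0 to 438.4 in T cells. In the NK cell libraries *Itgax* alone gave 3403, 3052 and 2521 of these normalised counts. *Xcr1* had at most 12 and *Clec9a* at most 13 raw counts in any library. *Siglech*, which encodes a receptor of plasmacytoid dendritic cells, had 405, 1 and 174 counts in the NK cell libraries. In the same libraries *Irf8* was within 17510 to 20790 normalised counts. Among the B cell markers, *Ms4a1*, which encodes CD20, had 405, 6 and 0 counts in the T cell libraries, in which *Irf8* had 1, 0 and 0. The higher dendritic cell sum without *Ccr9* in NK cells was thus mostly *Itgax*, and *Flt3*, *Clec10a*, *Xcr1* and *Clec9a* were at or near 0. What part this sum, and the higher macrophage sum in NK cells, had in the difference of *Irf8* was not tested.

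*Irf4* encodes a factor induced by antigen receptor signalling that drives the expansion of activated T cells and plasma cell differentiation. It lies on the plus strand at chr13:30749226-30766976. The NK cell libraries held 154, 2 and 11 raw counts of *Irf4*, and the 3 T cell libraries held none. NK cell library 1 held most of these reads, and library 2 was below 3 counts. Set against 3 counts per T cell library, the mean of 53.81 ± 83.28 normalised counts in NK cells (SD, n = 3) was at least 15.7-fold higher. Without NK cell library 1 the mean of the other two was 5.782, which is at least 1.69-fold. The difference did not pass the test (quasi-likelihood test of edgeR, Benjamini-Hochberg adjusted p = 0.13), and without NK cell library 1 *Irf4* fell under the filter on low counts and got no test. The plasma cell markers *Sdc1* and *Tnfrsf17* were at 0 in all 6 libraries, and *Jchain* had 26, 86 and 33 counts in the NK cell libraries and 0 in T cells. The part of these other cell types in the counts of *Irf4* was not tested.

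*Irf5* encodes a mediator of Toll-like receptor signalling best known from macrophages and dendritic cells. Its position is chr6:29526625-29541871 on the plus strand. The raw count of *Irf5* was 106, 52 and 33 in NK cells and 0 in each T cell library. Each NK cell library was thus above the limit of 3 counts and each T cell library below it. With 58.79 ± 39.04 normalised counts in NK cells (SD, n = 3), *Irf5* was at least 17.2-fold higher there (10.7-fold without NK cell library 1), and the difference did not pass edgeR's quasi-likelihood test (adjusted p = 0.064). Exons of *Irf5* share 251 bp with *Tnpo3* on the minus strand, and 11% of the 50-base windows of its transcripts also occur in *Tnpo3*. The sources used here do not say if the counting was strand-specific, so reads in the shared stretch cannot be told apart. *Tnpo3* itself had 1581 to 2284 raw counts in the T cell libraries, where *Irf5* had none. In the NK cell libraries *Tnpo3* had 1030, 740 and 405 raw counts. What part of the *Irf5* counts came from the shared stretch was not tested.

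*Irf9* encodes the DNA-binding subunit of ISGF3. It lies on the plus strand at chr14:55603571-55610030. Normalised counts of *Irf9* were 1132, 525.2 and 743.5 in NK cells, and 4520, 1925 and 3119 in the T cell libraries. The lowest T cell library, library 2, was still above the highest NK cell library. *Irf9* was 3.98-fold higher in T cells (3188 ± 1298 against 800.1 ± 307.2, SD, n = 3 each), with a log2 fold change of NK over T cells of -1.99 (SE 0.47, adjusted p = 0.043 by edgeR's quasi-likelihood test). This call lay near the threshold. It was lost without T cell library 1 (adjusted p = 0.081), without library 3 (0.064) and without NK cell library 1, 2 or 3 (0.096, 0.15 and 0.15), while the log2 fold change stayed between -2.33 and -1.64. The summed B cell markers, 940.6 to 6828 in T cells and 7.192 to 1521 in NK cells, were also mostly on the T cell side. Most of that sum in T cells was *Cd79b*, with 5739, 4725 and 940.6 normalised counts. The part of these markers in the difference of *Irf9* was not tested. Exons of *Irf9* share 123 bp with *Rnf31*, which had 818 to 1746 normalised counts in T cells and 882.6 to 2105 in NK cells, and reads in that stretch cannot be assigned with certainty. Leaving out any 1 NK cell library also lowered the number of all genes called from 1600 to between 476 and 485.

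Within each library, the per-kilobase level of *Irf9* was set against that of *Irf3*, a ratio that does not depend on library size. It was 0.306, 0.242 and 0.26 in T cells and 0.085, 0.0408 and 0.0674 in NK cells, without overlap. The ratio to *Stat2*, a partner of *Irf9* in ISGF3, was 2.03 to 134 in T cells and 1.28 to 5.97 in NK cells, and its upper end came from T cell library 1, which had 39 raw counts of *Stat2*.

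*Irf1* encodes an activator that is induced by IFNγ and that is needed for NK cell and T cell development. It is annotated at chr11:53770014-53778374 on the plus strand. *Irf1* had 4453, 6550 and 5640 normalised counts in NK cells and 4208, 2355 and 2953 in T cells. The groups did not overlap, but NK cell library 1 and T cell library 1 lay close together. Its exons share 100 bp with *Gm17334* on the other strand, which had at most 25 raw counts in a library. The log2 fold change of 0.81 (SE 0.30) did not pass the quasi-likelihood test of edgeR (adjusted p = 0.13).

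*Irf2* encodes the factor that mostly counters IRF1 and is needed for NK cell maturation. Its position is chr8:46739732-46847458 on the plus strand. *Irf2* had 3574, 3792 and 3844 normalised counts in NK cells and 1039, 1623 and 2751 in T cells. The NK cell libraries were close to each other and above all T cell libraries, which were spread out. The log2 fold change was 1.05 (SE 0.39, edgeR adjusted p = 0.13), and without T cell library 3 it was 1.49 and passed the threshold (adjusted p = 0.038). The per-kilobase ratio of *Irf1* to *Irf2* within a library was 0.932 to 1.29 in NK cells and 3.03, 1.09 and 0.803 in T cells, T cell library 1 being alone at the top.

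*Irf3* encodes the constitutively expressed factor that is activated first after viral sensing. It lies at chr7:44997648-45002848 on the plus strand. Normalised counts of *Irf3* were 9394, 9086 and 7781 in NK cells and 10420, 5614 and 8457 in T cells, and the groups overlapped. The log2 fold change was 0.10 (SE 0.26, edgeR adjusted p = 0.84), and it was -0.08 without T cell library 2.

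*Irf7* encodes the IFN-inducible factor that amplifies type I IFN production. It is annotated at chr7:141262706-141266481 on the minus strand. *Irf7* had 1102, 862.8 and 628.4 normalised counts in NK cells and 424.5, 1152 and 1081 in T cells. T cell library 1 was the lowest of all 6 libraries, and the groups overlapped. The log2 fold change was -0.03 (SE 0.56, edgeR adjusted p = 0.98) and gave no direction, since it was 0.03 with RLE normalisation. The per-kilobase ratio of *Irf7* to *Irf3* was 0.0739 to 0.107 in NK cells and 0.0373 to 0.188 in T cells.

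**Figure D1:**
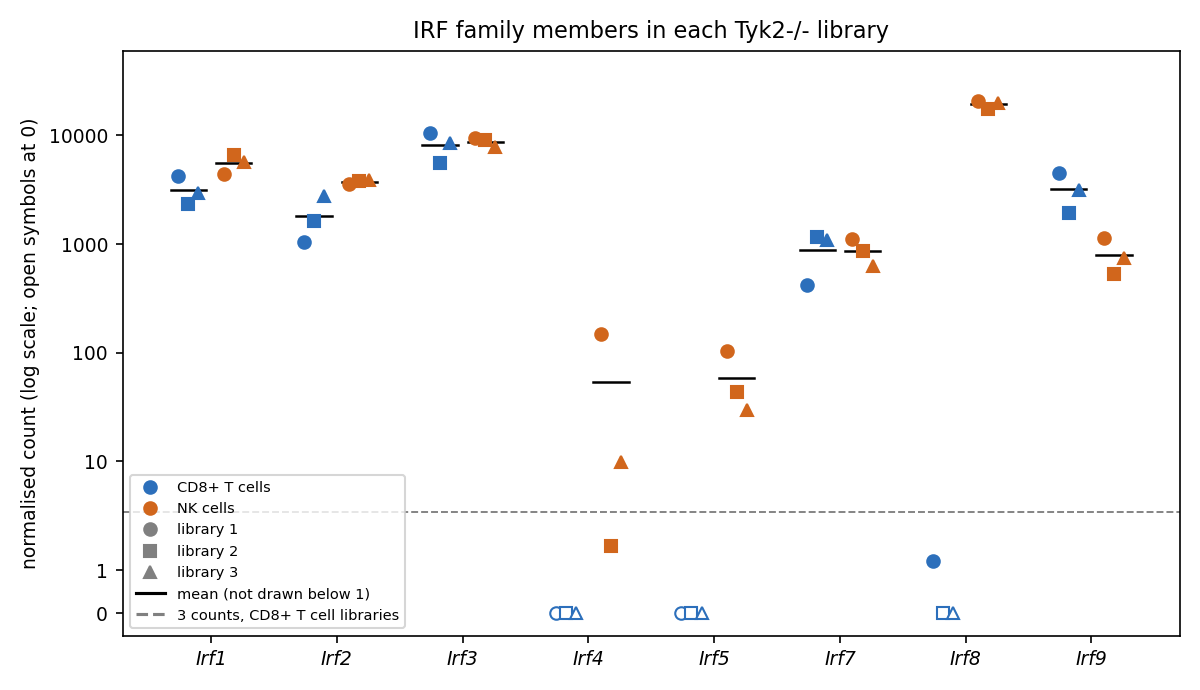
Normalised counts (log axis, open symbols at 0) of the 8 IRF family members in 3 CD8+ T cell libraries (blue) and 3 NK cell libraries (orange), with means as black lines where they are 1 or more and a dashed line at 3 counts per CD8+ T cell library. *Irf8* lies between 17510 and 20790 in NK cells and at 1 count or none in CD8+ T cells, and *Irf9* is the only member whose CD8+ T cell libraries all lie above its NK cell libraries.

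**Figure D2:**
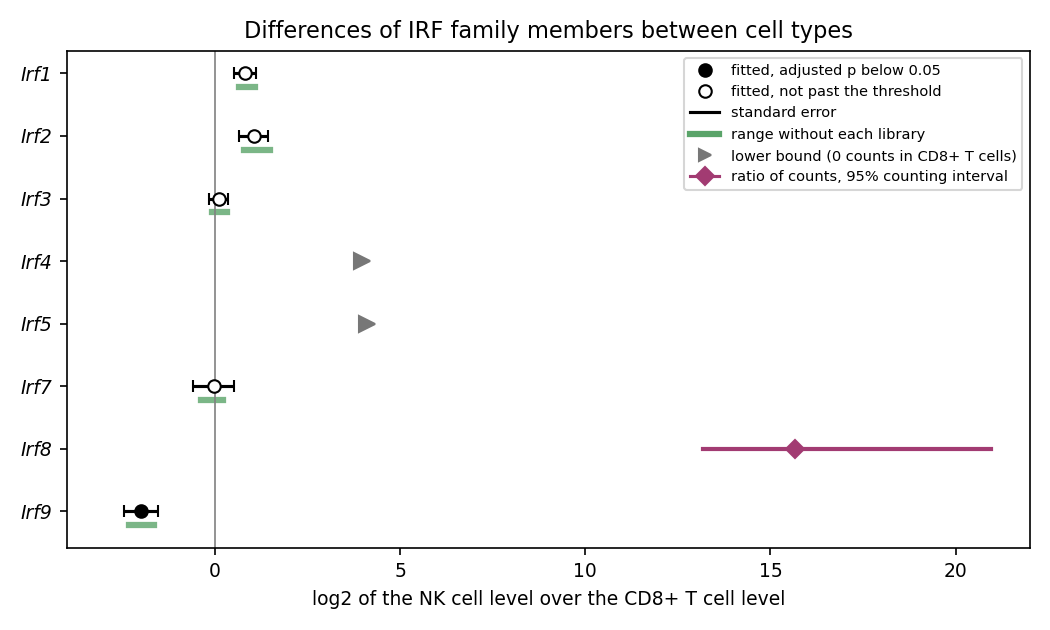
Log2 of the NK cell over the CD8+ T cell level for each member. Circles with bars give the fitted log2 fold change and its standard error (filled where the edgeR adjusted p is below 0.05). Green lines give the range without each library in turn. Triangles are lower bounds for *Irf4* (15.7-fold) and *Irf5* (17.2-fold), and the diamond is the ratio of counts of *Irf8* with its 95% counting interval. The bounds without NK cell library 1, 1.69-fold for *Irf4* and 10.7-fold for *Irf5*, are not drawn. *Irf9* is at -1.99, *Irf3* and *Irf7* lie near 0 with ranges on both sides of it, and *Irf8*, the other member past the threshold, is farthest to the right.

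Levels of different members were compared per kilobase of merged exons. In NK cells *Irf8* had the highest level with 5650 ± 494 normalised counts per kilobase (SD, n = 3), at the percentile 96.3 of the genes tested, followed by *Irf3* with 4000 ± 391. *Irf1* (1660 ± 315) and *Irf2* (1500 ± 57.4) came next and had overlapping ranges. They were followed by *Irf7* (361 ± 99.1) and *Irf9* (258 ± 99.0), which also overlapped, and by *Irf5* (22.2 ± 14.7) and *Irf4* (11.3 ± 17.5). Ranges were separate between *Irf8* and *Irf3*, between *Irf3* and *Irf1*, between *Irf2* and *Irf7* and between *Irf9* and *Irf5*.

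In T cells *Irf3* led with 3730 ± 1100 normalised counts per kilobase (SD, n = 3), 3.63 times the level of *Irf9*, and the ranges of the pair were separate. *Irf9* (1030 ± 419), *Irf1* (951 ± 283), *Irf2* (723 ± 349) and *Irf7* (370 ± 168) followed, and no neighbours among these 4 had separate ranges. *Irf9* thus ranked second in T cells and sixth in NK cells on this scale. Without T cell library 1 it stood below *Irf2* in T cells, with 838 against 902. With the longest transcript in place of the merged exons as length, *Irf1* was at 1480 in T cells and 2600 in NK cells, so whether it stood above or below *Irf9* in T cells depended on the length used.

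Summed over the 8 members, the level per kilobase was 13460 ± 482 in NK cells and 6801 ± 1590 in T cells (SD, n = 3 each). Without *Irf8* the sums were 7300 to 8179 and 5022 to 8073, which overlapped. *Irf8* made up 38.4 to 44.2% of the family sum in the NK cell libraries. *Irf3* made up 51.1 to 59.0% in T cells and 27.1 to 31.3% in NK cells, and *Irf9* made up 12.4 to 18% and 1.28 to 2.61%, respectively. These shares are bound to each other within a library, so that a high share of *Irf8* lowers the others.

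**Figure D3:**
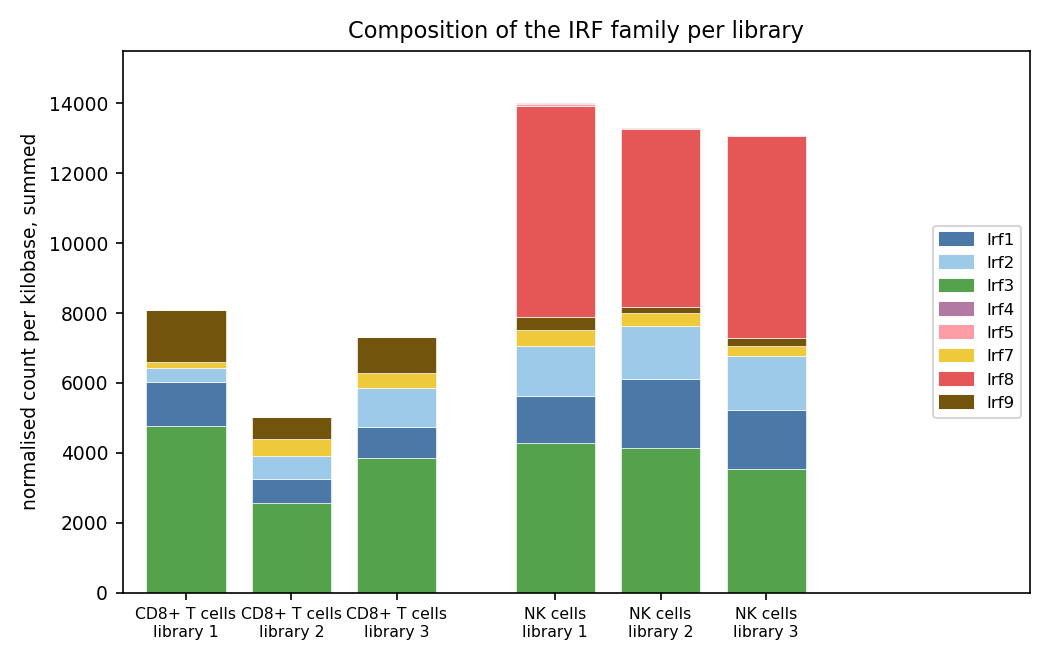
Normalised counts per kilobase of the 8 members, stacked for each of the 6 libraries (linear axis from 0). The NK cell libraries reach 13090 to 14000 and the CD8+ T cell libraries 5022 to 8073, and *Irf8* (red) is seen in NK cells only at this scale, as it has at most 1 count in a CD8+ T cell library.

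The members also differed in how evenly they were measured. In NK cells the coefficient of variation between libraries was 3.83% for *Irf2*, 8.74% for *Irf8* and 9.78% for *Irf3*, against a median of 33.6% over 12995 genes with a mean of at least 10 normalised counts. Above that median were *Irf9* (38.4%), *Irf5* (66.4%) and *Irf4* (155%), 3 of 8 members. In T cells the 5 members with such a mean had 29.6% (*Irf3*) to 48.3% (*Irf2*), and all of them lay under the median of 70% over 11635 genes. Both medians were taken over genes of all levels and not matched to the members. By level per kilobase these 5 stood at percentiles 70.2 to 95.1 in T cells. *Irf2*, *Irf3* and *Irf8* stood at 89 to 96.3 in NK cells.

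The window in front of the start site was read for the members, since several of them are themselves targets of IFN signalling. RefSeq holds 11 windows for the 8 members (GRCm38.p6, 250 bases before to 50 after each start). They were searched on both strands for the ISRE core, to which IRF proteins and ISGF3 bind, taken as a pair of GAAA repeats with any 2 bases between them, and for TTCNNNGAA, the gamma-activated sequence (GAS) to which STAT dimers bind. The ISRE core was present in 1 member (*Irf2*) and in 3.99% of 27025 genes with such windows, and GAS was present in 3 members (*Irf1*, *Irf2* and *Irf8*) and in 9.55% of genes. The 250 bases before the start of these 3 members are given with both motifs in capitals, for *Irf8* from chr8:120736108-120736357, for *Irf2* from chr8:46739495-46739744 and for *Irf1* from chr11:53769764-53770013, all on the plus strand. They are shown because *Irf8* was the member with the largest difference, and *Irf1* and *Irf2* share the motif with it.
Irf8: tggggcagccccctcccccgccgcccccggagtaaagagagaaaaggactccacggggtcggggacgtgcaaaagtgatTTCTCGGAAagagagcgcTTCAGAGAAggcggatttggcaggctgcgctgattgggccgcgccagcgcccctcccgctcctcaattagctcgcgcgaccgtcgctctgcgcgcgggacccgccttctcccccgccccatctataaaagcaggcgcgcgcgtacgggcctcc
Irf2: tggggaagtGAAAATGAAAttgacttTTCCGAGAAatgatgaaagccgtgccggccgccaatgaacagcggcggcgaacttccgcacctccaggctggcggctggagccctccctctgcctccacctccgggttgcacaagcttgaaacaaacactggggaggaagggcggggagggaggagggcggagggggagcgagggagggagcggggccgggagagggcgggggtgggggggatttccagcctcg
Irf1: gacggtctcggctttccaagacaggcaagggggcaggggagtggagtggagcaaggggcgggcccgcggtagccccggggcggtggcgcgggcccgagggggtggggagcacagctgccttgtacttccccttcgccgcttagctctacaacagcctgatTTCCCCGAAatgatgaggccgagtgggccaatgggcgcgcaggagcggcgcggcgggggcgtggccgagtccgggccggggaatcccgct
Counted from the start site, the GAS matches of *Irf8* lie at -171 to -163 (TTCTCGGAA) and -153 to -145 (TTCAGAGAA), with 9 bases between them. *Irf2* holds the ISRE core at -241 to -232 (GAAAATGAAA) and GAS at -224 to -216 (TTCCGAGAA), and the single GAS match of *Irf1* (TTCCCCGAA) is at -90 to -82. No match of either motif is in the windows of *Irf3*, *Irf4*, *Irf5*, *Irf7* and *Irf9*, which says only that these letters are not there. Of the 3 members with GAS, *Irf8* passed the test between cell types and *Irf1* and *Irf2* did not. *Irf9*, which also passed, has no match in its windows. Both windows of *Irf9* begin inside the gene (at chr14:55603735 and chr14:55604329). The stretch before its annotated start at chr14:55603571 was therefore not searched.

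Genes around the family were grouped in 6 lists by their role. Of the 96 listed genes 73 were tested, and 13 of these (17.8%) passed the test, against 11.4% of all genes tested, 7 being higher in NK cells and 6 in T cells. Leaving out 1 NK cell library lowered this count to 4, 6 and 4 (libraries 1, 2 and 3), beside 482, 485 and 476 calls over all genes.

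Sensors, adaptors and kinases that activate IRF3, IRF5 and IRF7 formed the first list. Of 18 genes, 16 were tested and 3 (18.8%) passed, with a median log2 fold change of 0.45. *Ticam1*, which encodes TRIF, the adaptor of TLR3 and TLR4 that leads to IRF3, had 859.2, 402.9 and 711.1 normalised counts in NK cells and 0 raw counts in each T cell library, and was at least 192-fold higher in NK cells (edgeR adjusted p = 0.013). *Ifih1*, which encodes the RNA sensor MDA5, was also at 0 in T cells and at least 46.6-fold higher in NK cells (245.2, 69.52 and 162.7 normalised counts, edgeR adjusted p = 0.046). *Ikbke*, which encodes an IRF3 and IRF7 kinase, went the other way, with 511.1 ± 126.6 normalised counts in NK cells and 3452 ± 720.8 in T cells (SD, n = 3 each, edgeR adjusted p = 0.0055). Its call was kept without each library in turn. The call of *Ticam1* was lost without NK cell library 1, 2 or 3 (adjusted p = 0.1, 0.067 and 0.093), and that of *Ifih1* without T cell library 1 (0.051), without NK cell library 1, 2 or 3 (0.15, 0.14 and 0.15) and with no filter on low counts (0.066). *Tlr9*, the DNA sensor upstream of IRF7 in plasmacytoid dendritic cells, had 0 counts in all 6 libraries and was singled out after its values were seen.

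The list of ISGF3 and IFN receptor signalling held 8 genes, all tested, of which 2 (25%) passed, with a median log2 fold change of 0.67. *Ifnar2*, a chain of the type I IFN receptor, was higher in NK cells (7326 ± 1192 against 1979 ± 189.2 normalised counts, SD, n = 3 each, edgeR adjusted p = 0.0045). *Jak1*, which encodes the kinase that pairs with TYK2 at this receptor, was higher there too (48660 ± 2957 against 18630 ± 4610, edgeR adjusted p = 0.01). *Ifnar2* kept its call without each library, while *Jak1* lost it without NK cell library 1 or 3 (adjusted p = 0.056 and 0.053). *Stat2*, which encodes an ISGF3 subunit, had 268.6, 216.9 and 822.6 normalised counts in NK cells and 47.72, 634 and 2181 in T cells. These ranges overlapped, and *Stat2* did not pass the test (edgeR adjusted p = 0.59).

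Partners and cofactors with which IRF proteins bind DNA or are regulated gave no call among 19 genes tested of 21 listed (edgeR's quasi-likelihood test), 4 having an unadjusted p below 0.05, and DESeq2 called 3 of them (*Ikzf3*, *Crebbp* and *Ep300*). The median log2 fold change was 0.02. *Spi1*, which encodes PU.1, the ETS partner of IRF4 and IRF8, had 112, 82 and 0 raw counts in NK cells and 0 in each T cell library (edgeR adjusted p = 0.16). *Batf*, which encodes the AP-1 partner of IRF4 in T cells, had 877.8 ± 135.6 normalised counts in NK cells and 919.7 ± 463.7 in T cells (SD, n = 3 each, edgeR adjusted p = 0.95). Both were picked after their values were seen.

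ISRE-driven IFN-stimulated genes are the targets of ISGF3. Of 24 genes, 10 did not reach a mean of 10 normalised counts and were not tested, among them *Isg15* with 8 counts in NK cell library 2 and none elsewhere, and *Rsad2* and *Oasl2* with 0 in all 6 libraries (named after their values were seen). Of the 14 tested, 2 (14.3%) passed, both higher in T cells, and the median log2 fold change was -0.71. The libraries did not overlap for 6 of the 14, against 41.6% of all genes tested. Besides the 2 called, these were *Bst2* and *Parp9*, higher in T cells, and *Mx1* and *Xaf1*, higher in NK cells. *Bst2*, *Parp9*, *Mx1* and *Xaf1* did not pass (edgeR adjusted p = 0.071, 0.09, 0.093 and 0.46) and were named after their values were seen. *Dtx3l*, which encodes a ubiquitin ligase that works with PARP9, had 2369 ± 319.3 normalised counts in T cells and 850.7 ± 112.9 in NK cells (SD, n = 3 each, edgeR adjusted p = 0.032). *Oas3*, which encodes a double-stranded RNA sensor upstream of RNase L, had 805, 8 and 797 raw counts in T cells and 0, 1 and 2 in NK cells, a ratio of 671 with a 95% counting interval from 229 to 3260 (edgeR adjusted p = 0.046). T cell library 2 stood apart for *Oas3*. Without NK cell library 3 the ratio was 1340 (interval from 240 to 53000). *Oas3* kept its call without T cell library 2 (edgeR adjusted p = 0.014). The call was lost without T cell library 1 or 3 (0.075 and 0.064) and without NK cell library 1, 2 or 3 (0.15 each). *Dtx3l* lost it without T cell library 2 (0.054), without NK cell library 1, 2 or 3 (0.15, 0.12 and 0.14) and with no filter on low counts (0.056).

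Genes of antigen presentation and related functions that are linked to IRF1 gave 6 calls among 16 genes, all tested (37.5%, against 11.4% of all genes tested), with a median log2 fold change of 0.10. *Psme1* and *Psme2*, which encode both subunits of the proteasome activator PA28, went in opposite directions. *Psme1* had 41430 ± 3520 normalised counts in NK cells and 15700 ± 7283 in T cells (SD, n = 3 each, edgeR adjusted p = 0.049), whereas *Psme2* had 1833 ± 418.9 and 7253 ± 1005 (edgeR adjusted p = 0.0064). *Psme2* has a close copy, *Psme2b*, and reads that fit both were left out by the counting, so its level is uncertain. *Tapbp*, which encodes the peptide-loading factor tapasin, was higher in T cells (21850 ± 4859 against 8555 ± 1066, edgeR adjusted p = 0.014), as was *Gbp2*, which encodes an IFNγ-induced GTPase (3546 ± 1105 against 648.4 ± 227.3, edgeR adjusted p = 0.017).

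*Casp1*, which encodes the inflammasome protease, and *Il15*, which encodes the cytokine that keeps NK cells alive, had 0 raw counts in all T cell libraries. *Casp1* was at least 399-fold higher in NK cells (931.2, 1721 and 1434 normalised counts, edgeR adjusted p = 0.0048) and *Il15* at least 46.4-fold (275.4, 66.17 and 134, edgeR adjusted p = 0.049), the latter 29.3-fold without NK cell library 1. The calls of *Casp1* and *Psme2* were kept without each library. Lost were those of *Tapbp* without NK cell library 1, 2 or 3 (adjusted p = 0.058, 0.078 and 0.083), of *Gbp2* without NK cell library 1 or 3 (0.093 and 0.083), of *Psme1* without T cell library 1 (0.09) or NK cell library 1, 2 or 3 (0.14, 0.15 and 0.15), and of *Il15* without T cell library 1 or 3 (0.054 and 0.052), without NK cell library 1, 2 or 3 (0.15, 0.14 and 0.15) or with no filter on low counts (0.068).

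The listed type I and III IFN genes, some of which IRF3 and IRF7 switch on, had 2 counts or fewer in each library. Of 9 listed genes, 8 had 0 counts in all 6 libraries, and *Ifnk* had at most 2. At 0 counts a library may still hold up to 3 counts of its total, so this is a limit and not an absence. The limit covers counting error only. Reads that fit several genes were dropped before counting, and the limit does not allow for reads of these IFN genes lost in that way. How many such reads there were was not tested.

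**Figure D4:**
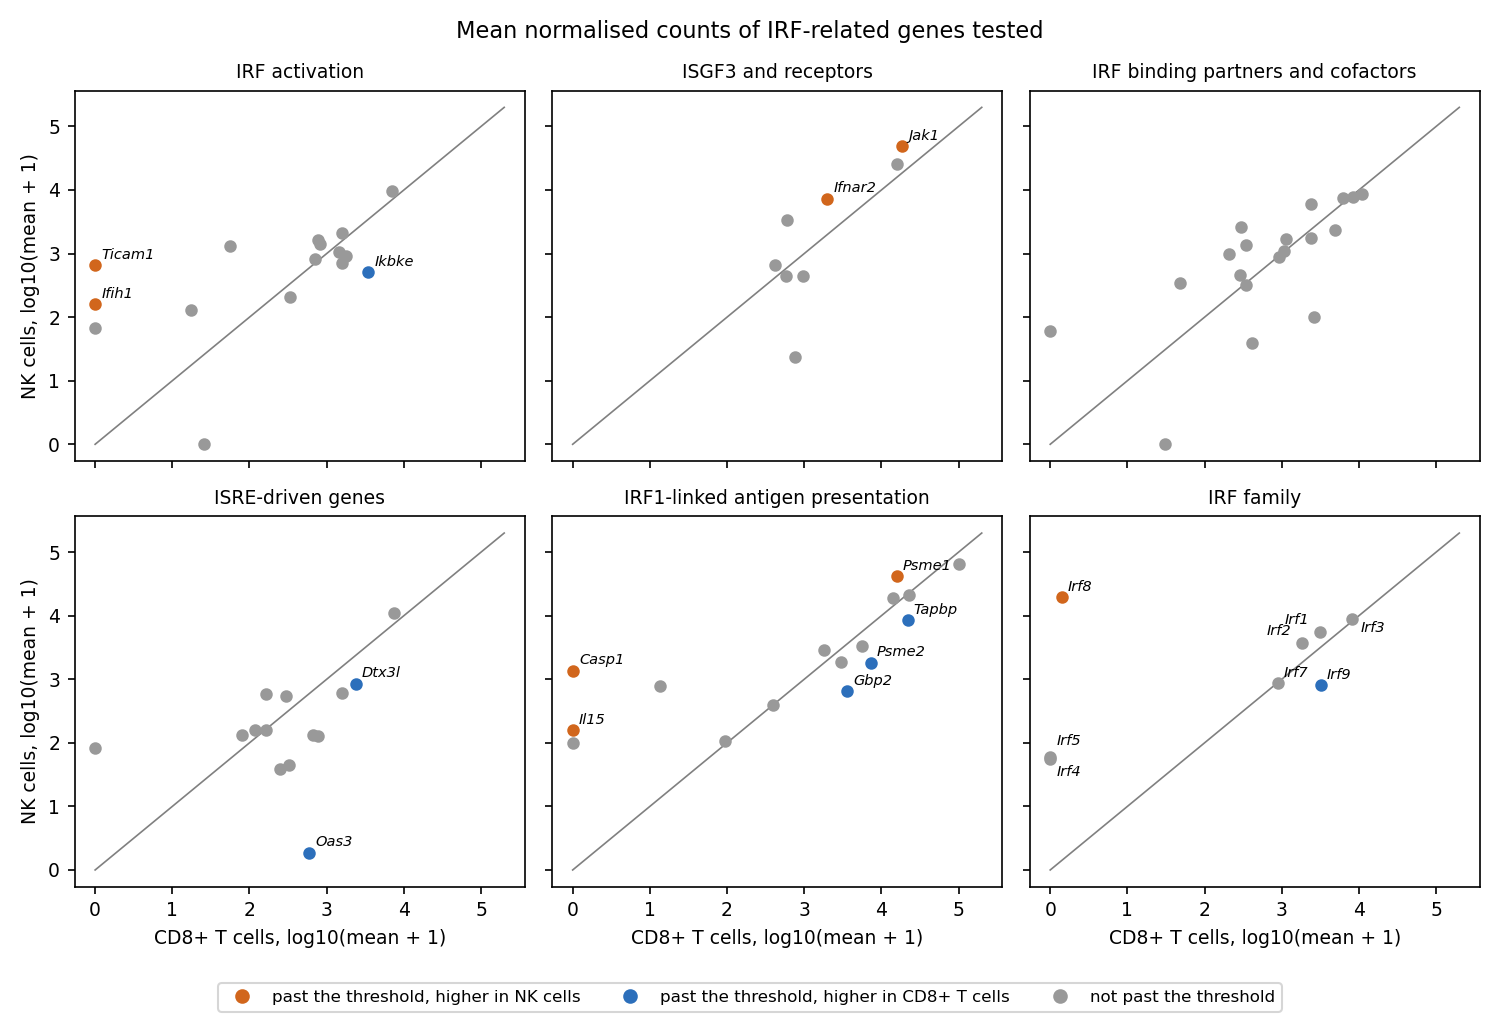
Mean normalised counts, as log10(mean + 1), in CD8+ T cells (horizontal) and NK cells (vertical) of the genes tested in 5 lists and of the 8 IRF family members, with the line of equal means. Orange points passed the threshold with a higher level in NK cells, blue points with a higher level in CD8+ T cells, and grey points did not pass. *Irf8*, *Ticam1*, *Ifih1*, *Casp1* and *Il15* lie at the left edge, where CD8+ T cells have 1 count or none, and *Irf9* lies on the right of the line.

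The genes most like a called member over the 6 libraries were found by the Euclidean distance of centred log2(normalised count + 1) values. For *Irf8* these were *Arl4d* (distance 0.878), *Klrb1f* (0.956) and *Dcxr* (0.993), against a median distance of 16.5 over all genes tested. *Arl4d* encodes an ARF-like GTPase, *Klrb1f* a lectin-like NK receptor and *Dcxr* a carbonyl reductase, and the 3 had 13500 to 26850 normalised counts in NK cells and at most 2.447 in T cells. For *Irf9* they were *Gm49336* (0.571), *Mir7058* (0.632) and *Cept1* (0.641), against a median of 5.17. *Cept1*, which encodes an enzyme of phospholipid synthesis, had 2352, 1150 and 1118 normalised counts in T cells and 562.4, 316.6 and 437.8 in NK cells, and did not pass the test (edgeR adjusted p = 0.069). The 6 points of each profile share the split by cell type, so a small distance describes these libraries only.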

How the data were processed

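RNA of FACS-purified splenic NK and CD8+ T cells was amplified by Smart-seq2 from 500 pg RNA, and libraries were made with Nextera XT from 1 ng cDNA and read as 50 bp single-end reads. Per the submitters' processing notes and methods, the authors trimmed reads with Trimmomatic 0.32, aligned them with STAR 2.7.1 to mm10 and deposited the raw exon count of each gene (summarizeOverlaps, R 3.2.3, GENCODE Basic), with multi-mapping reads left out. Genes with near-identical copies can therefore be undercounted. Of the 50-base windows of the members' transcripts, none of *Irf2*, *Irf4*, *Irf7* and *Irf8* and 1.1 to 1.82% of *Irf1*, *Irf3* and *Irf9* occurred in other genes. Of 104 columns of values, 6 were used and 98 were not used here. Columns carry running numbers, so libraries were numbered 1 to 3 within a cell type.

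Symbols, positions and merged exon lengths came from GENCODE vM21 Basic (GRCm38), which matched 54079 of 54232 gene IDs. A mean of 10 or more normalised counts was required, which 14062 genes met. Cell types were compared by the quasi-likelihood test of edgeR 4.0.16 (R 4.3.3; TMM, robust, Benjamini-Hochberg adjustment over all genes tested, threshold 0.05, n = 3 each). Standard errors were derived from the log2 fold change and the F statistic. A group at 0 was set to 3 counts per library for lower bounds. Between libraries of a cell type 0.235 to 0.911% of genes had equal counts, so none was a copy. Fits were tested on simulated data. Alternatives were RLE normalisation, the Wald test of DESeq2 1.42.0, no filter, the longest transcript as length and leaving out each library. The members and lists were chosen with earlier results of these data known. Named were all members, *Tyk2*, listed genes past the threshold, the 3 nearest profiles of each called member and defining markers. A few listed genes are not reported here and were left out of the counts and sums over the lists. Reads carry no molecular identifiers, so intervals and limits cover counting error only. Sums over the marker lists not given in the text were, in NK and CD8+ T cells, 16.18 to 36 and 3.871 to 116.2 for CD4+ T cells, 20.94 to 47.65 and 0 to 3.679 for neutrophils, 18.88 to 72.87 and 1.935 to 42.82 for erythroid cells.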

Additional observations from a re-analysis of the deposited data

How the results depend on the processing

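No paired analysis was possible because the NK and CD8+ T cell samples share no replicate number and the columns carry running numbers. The comparison of *Tyk2*-/- with *WT* CD8+ T cells, its alternatives and the identity of the proteins were not run. DESeq2 called 3729 of 12612 genes (29.6%) against 1600 of 14062 with edgeR, and it called 5 members (*Irf1*, *Irf2*, *Irf5*, *Irf8* and *Irf9*, 4 higher in NK cells and 1 in CD8+ T cells) in place of 2, and 24 listed genes in place of 13. By list it called 5 in place of 3 for IRF activation, 5 in place of 2 for ISGF3 and receptors, 3 in place of 0 for partners and 4 in place of 2 for ISRE-driven genes. With no filter on low counts 1 ISRE-driven gene was called in place of 2, and *Ifih1*, *Il15* and *Dtx3l* lost their calls. RLE normalisation and no filter kept the calls of *Irf8* and *Irf9* (adjusted p of *Irf9* 0.049 and 0.048). The log2 fold change of *Irf7*, -0.03, was 0.0307 with RLE normalisation and 0.0305 with DESeq2, and it ranged from -0.36 to 0.23 when libraries were left out, being 0.23, 0.13 and 0.15 without CD8+ T cell library 2, CD8+ T cell library 3 or NK cell library 3. That of *Irf3*, 0.10, ranged from -0.081 (without CD8+ T cell library 2) to 0.33.

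With each library left out in turn, 1 to 2 members were called, and 4 to 14 listed genes, by list 1 to 4 for IRF activation, 1 to 3 for ISGF3 and receptors, 0 to 2 for partners, 0 to 1 for ISRE-driven genes and 2 to 6 for antigen presentation. Neighbours in the order of levels with separate ranges numbered 4 to 7 in NK cells (4 with all libraries) and 2 to 3 in CD8+ T cells (2). Members above the median spread numbered 1 to 4 in NK cells (3 of 8 with all libraries, 1 of 7 without library 1). In CD8+ T cells they numbered 0 to 2 (0 with all libraries, 2 without library 2). Each such fit or range rested on 1 library less, and the cause of these shifts was not tested. A p that missed the threshold, as for *Irf1* and *Irf2*, does not show that the levels were alike.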
